A study of Rattus norvegicus with 6 samples.

Results

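The vesicular glutamate transporters Slc17a7 (VGLUT1, ENSRNOG00000020650) and Slc17a6 (VGLUT2, ENSRNOG00000016147), were followed in the rat superior colliculus. These 2 genes were taken by their Ensembl IDs from the 26402 IDs measured, and both were present in the FPKM table and in the authors' own comparison. The tissue was the superficial part of the superior colliculus of Sprague Dawley rats at postnatal day 20. In the closed group the eyelids were glued shut between postnatal days 14 and 20, while eyes were open over those days in the open group. Each group held 3 libraries of polyadenylated RNA, 1 per batch, and the labels name the batches A, B and C. Neither the number of animals behind a library nor what a batch stands for is given in the labels, so p-values measure the spread between these libraries. The question was whether the level of either transporter, or the balance between them, differed when eye opening was prevented.

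VGLUT1 and VGLUT2 load glutamate into synaptic vesicles, using the gradient built by the vesicular proton pump, and a neuron that makes one of them can release glutamate. VGLUT1 is the main form in cortical and hippocampal pyramidal cells, and VGLUT2 is the main form in thalamic, midbrain and brainstem neurons and in retinal ganglion cells. Axons from the retina bring VGLUT2 protein, and axons from visual cortex bring VGLUT1 protein, into the superficial colliculus, but the mRNA lies mostly in the cell bodies, so tissue RNA reads mainly the neurons inside the dissected piece.

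VGLUT2 mRNA was abundant and even, and VGLUT1 mRNA was scarce and uneven. FPKM scales fragments by transcript length and library size, so levels of the 2 genes can be set side by side. Slc17a6 stood at 67.3 FPKM in closed A, 76.3 in closed B and 63.1 in closed C. With open eyes it stood at 64.6 FPKM in batch A, 65.4 in batch B and 61.7 in batch C. The highest library, closed B, was only 1.24 times the lowest, open C, and apart from closed B the libraries lay close together. By mean level Slc17a6 ranked 701 among the 12351 IDs tested here, those whose mean reached 1 FPKM, and its rank within single libraries ran from 611 to 805.

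Slc17a7 stood at 0.317 FPKM in closed A, 4.68 in closed B and 0.167 in closed C. With open eyes it stood at 2.41 FPKM in batch A, 4.95 in batch B and 0.591 in batch C. Both batch B libraries were high, both batch C libraries were low, and batch A was split between a low closed and a middling open library. The highest library, open B, held 29.7 times the level of the lowest, closed C. By mean level Slc17a7 ranked 10837 among the 12351 tested IDs, so its mean of 2.19 FPKM lay below the median ID at 8.85 FPKM. Both genes thus passed the filter on low values, Slc17a7 by way of batch B and open A, since it stayed under 1 FPKM in the other 3 libraries.

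**Figure D1:**
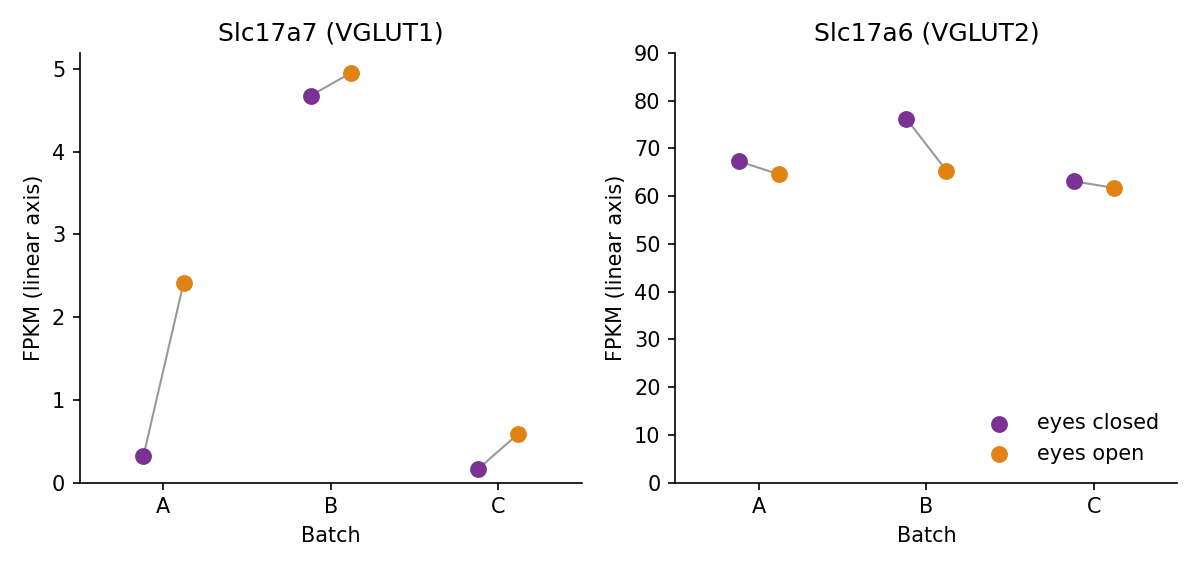
Each point is 1 library, and the y axis gives FPKM on a linear scale for Slc17a7 (left) and Slc17a6 (right); grey lines join the closed and open library of a batch. Slc17a7 ran from 0.167 to 4.95 FPKM with batch B highest, while Slc17a6 stayed between 61.7 and 76.3 FPKM.

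By estimate, the low Slc17a7 values rest on few reads. The authors' deposited table gave Slc17a7 a mean normalized count of 207.6 and Slc17a6 a mean normalized count of 5221, which is 94.9 and 78.6 counts per FPKM. At that rate the Slc17a7 levels would stand for about 15.8 counts in closed C, 30.1 in closed A and 56.1 in open C, against 470.3 in open B. These are estimates on the scale of an average library, because counts per library were not used here, and they set how finely a fold between low libraries can be read.

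VGLUT2 mRNA exceeded VGLUT1 mRNA in every library. The ratio of Slc17a6 to Slc17a7 FPKM was 212.4 in closed A, 16.3 in closed B and 378.3 in closed C. In open libraries this ratio was 26.8 in batch A, 13.2 in batch B and 104.4 in batch C. The smallest excess of VGLUT2, in open B, was thus still more than 10-fold, and VGLUT1 made up between 0.264% and 7.04% of the summed FPKM of both genes. Together the 2 genes reached 70.6 ± 9.19 FPKM with closed eyes and 66.6 ± 4.02 FPKM with open eyes (SD, n = 3 each), a sum set almost wholly by Slc17a6.

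Slc17a7 was among the most spread of the tested IDs, and Slc17a6 was less spread than most. On the log2(FPKM + 0.5) scale the SD over the 6 libraries was 1.36 for Slc17a7 and 0.11 for Slc17a6, beside a median SD of 0.18 over all tested IDs. The SD of Slc17a7 was above that of 99.3% of tested IDs, and that of Slc17a6 was above only 16.9%. IDs of like level were mostly far less spread: among the 3320 IDs whose mean lay within 2-fold of that of Slc17a7, the median SD was 0.18 and Slc17a7 ranked 61. Of the 91 IDs with an SD at least as large, itself included, 85 were listed at 0 FPKM in some library. Among the 12259 tested IDs listed above 0 in every library, Slc17a7 ranked 6 by SD and Slc17a6 ranked 10166. The filter on mean level admitted Slc17a7 through its higher libraries, so its ranks by SD are a description only.

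**Figure D2:**
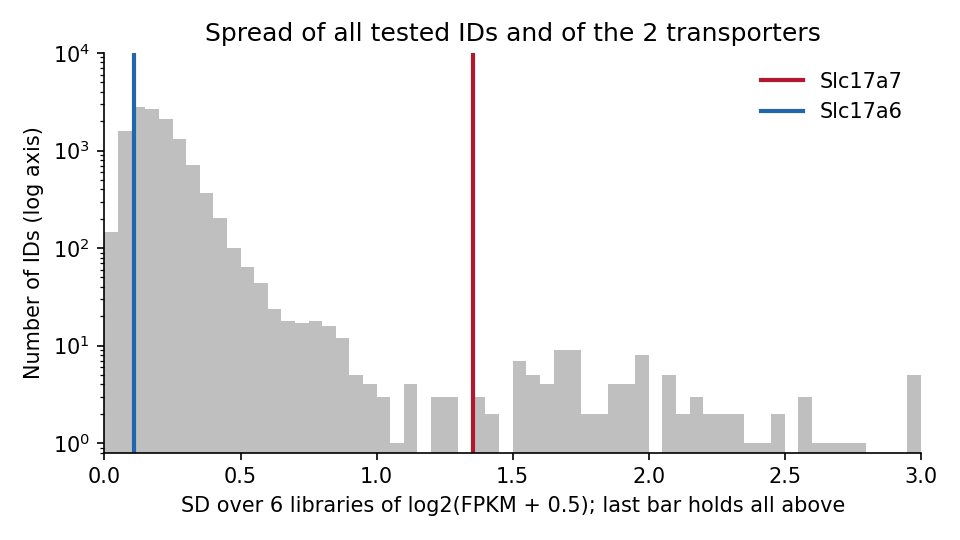
The x axis gives the SD over 6 libraries of log2(FPKM + 0.5), the y axis the number of the 12351 tested IDs per bin on a log axis, and the last bar collects all larger values. The line for Slc17a7 at 1.36 lies far in the right tail and that for Slc17a6 at 0.11 lies left of the median of 0.18.

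VGLUT1 mRNA varied more between batches than between eye conditions. The batch mean of Slc17a7 was 4.82 FPKM in B, 1.36 in A and 0.379 in C, a span of 12.7-fold. Batch took 78.9% of its sum of squares on the log2 scale, eye condition 12.4% and the remainder 8.63%, and over all tested IDs these shares were 66.9%, 11.9% and 21.2%. The batch share of Slc17a7 was an ordinary one, since 46% of tested IDs had a lower share. In limma, with eye condition in the fit, Slc17a7 differed between batches at an adjusted p of 0.0445, as did 49.7% of tested IDs. Passing that test was therefore common, but the size was not, since the log2 span of 2.64 between its highest and lowest batch ranked 32 among 12351 IDs. Slc17a7 passed the filter on mean level through its higher libraries, so this rank is a description and no support for a batch difference. The test of batches was added after the data were seen, and without batch C the adjusted p was 0.209 and the log2 span 1.78. Without batch B the span was 0.85, with an adjusted p of 0.042. Without batch A, where the highest and lowest batches remain, the span was again 2.64, with a limma adjusted p of 0.000413. Fewer samples were fitted with a batch left out, and the share of tested IDs called there is not given. Because of the same filter, these p-values between batches are also a description and no support for a batch difference.

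The batch differences of VGLUT2 were far smaller in size. Its batch means were 70.8 FPKM in B, 65.9 in A and 62.4 in C, a span of 1.13-fold, and its adjusted p between batches was 0.187 in the same limma fit. Batch took 54% of the Slc17a6 sum of squares, eye condition 28% and the remainder 18%, and 21.1% of tested IDs had a lower batch share. Batch has more levels than eye condition and so takes a larger share by itself. In the blocked limma fit the unadjusted p of Slc17a6 was 0.133 for batch and 0.139 for eye condition, so neither stood above the other. The order of the batch means, B above A above C, was the same for both genes. Across the 6 libraries the 2 genes correlated at r = 0.55 on the log2 scale, a description over points that share batches, and 5278 of 12350 other IDs correlated with Slc17a7 at least as well as Slc17a6 did. In whole tissue, fewer cells that make a transcript and less of it per cell cannot be told apart.

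With eyes closed, VGLUT1 was lower than with eyes open inside each batch, by amounts that differed widely, and it did not pass the test. Slc17a7 was 7.61 times higher in open than in closed in batch A, 1.06 times in batch B and 3.54 times in batch C. On the log2(FPKM + 0.5) scale, which shrinks folds of low values, closed minus open was -1.83 for batch A, -0.07 for batch B and -0.71 for batch C. Batch A and batch C thus carried the difference, and batch B, where the gene was highest, had next to none. With 1 library per group in a batch, the contrast between batches was not tested. In batch A only 46 of the 12351 IDs had a larger difference in size and in batch C 105 did, whereas in batch B 7975 did. Slc17a7 passed the filter on mean level by way of batch B and open A, and both batch C libraries lay under 1 FPKM. These ranks are therefore a description and no support for an eye difference. The direction in itself is common, since closed lay below open in all 3 batches for 19.5% of tested IDs, and for 14.1% after median scaling of the libraries.

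Set against the spread within groups, which includes the spread between batches, the VGLUT1 difference was small. Closed libraries averaged 1.72 ± 2.56 FPKM and open libraries 2.65 ± 2.19 FPKM (SD, n = 3 each), and the ranges overlapped almost fully. The limma difference was -0.87 on the log2 scale (SE 1.06, adjusted p = 1), with a 95% interval from -3.64 to 1.90. Paired by batch, the log2 differences had an SD of 0.89, near the size of their mean. With the batch as a block the SE was 0.40, the interval ran from -2.08 to 0.34 and the adjusted p was 0.803. In linear terms the blocked interval reaches from 4.23-fold lower to 1.26-fold higher in closed eyes, so these libraries bound the VGLUT1 difference only loosely. In these limma fits 0% of tested IDs were called without the block and 0.0081%, 1 ID that is neither transporter, with it. At an unadjusted p under 0.05, 67 IDs (0.542%) passed without and 780 (6.32%) with the block, and neither transporter was among them.

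Single libraries moved the VGLUT1 estimate a good deal, but not its sign. Without closed B the log2 difference was -1.81 (limma adjusted p = 1), and without open C it was -1.5. Without closed A it was -0.48, without open B -0.34 and without closed C -0.33. Leaving out all of batch A gave -0.39 and leaving out batch B gave -1.27. With the batch as a block and batch B left out, the limma interval ran from -1.92 to -0.63 (unadjusted p = 0.00219, rank 50 of 12351 IDs). The adjusted p was 0.532, so the difference was not called there either. In that limma fit 447 of 12351 IDs had an unadjusted p under 0.05. The filter on mean level still used all 6 libraries, and Slc17a7 passed it by way of batch B and open A. That interval and rank are therefore a description and no support for a difference. A pseudocount of 0.1 gave -1.35.

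VGLUT2 leaned the other way by a small amount. Slc17a6 averaged 68.9 ± 6.71 FPKM with closed eyes and 63.9 ± 1.91 FPKM with open eyes (SD, n = 3 each). Closed was 1.04 times open in batch A, 1.17 times in batch B and 1.02 times in batch C, so the closed library was the higher one in all 3 pairs while the groups overlapped. Closed above open in all 3 batches held for 8.4% of tested IDs, and for 13.5% after median scaling. In batch B 5.59% of tested IDs had a difference at least as high, and in batches A and C 20.6% and 45.3% did.

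The VGLUT2 difference did not pass the test and was bounded narrowly. The limma log2 difference was 0.10 (SE 0.13, adjusted p = 1) with a 95% interval from -0.20 to 0.41. With the batch as a block the SE was 0.063, the interval -0.04 to 0.25 and the adjusted p 0.807. The blocked interval reaches from 1.03-fold lower to 1.19-fold higher in closed eyes, and an interval inside 1.5-fold was found for 96.6% of tested IDs in that fit. Closed B decided most of the estimate: without it the log2 difference was 0.03. Without closed C it was 0.16, and without batch B it was 0.045.

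**Figure D3:**
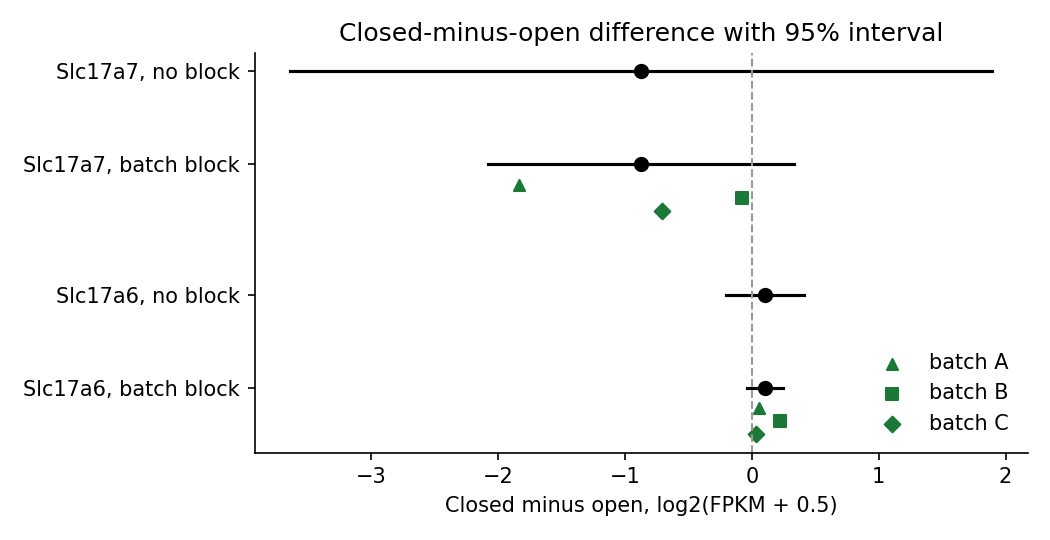
The x axis gives closed minus open on the log2(FPKM + 0.5) scale; black points are limma estimates with 95% intervals, without and with the batch as a block, and green markers are the single batches. All 3 batches lie below 0 for Slc17a7, from -1.83 to -0.07, and above 0 for Slc17a6, from 0.03 to 0.22, and all 4 intervals include 0.

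In the authors' own comparison neither transporter passed at an adjusted p under 0.05. For Slc17a6 the authors' deposited table gave a log2 fold of 0.16, turned here to closed over open, with an unadjusted p of 0.026 and an adjusted p of 1. That p ranked 266 among 20347 IDs, of which 2.4% had an unadjusted p under 0.05 and 0.0344% an adjusted one. For Slc17a7 the authors' deposited table gave a log2 fold of -0.04 with an unadjusted p of 0.254 and an adjusted p of 1. Both signs were those seen in FPKM, but the same libraries stand behind both tables and FPKM itself was used to orient the deposited fold, so this is not a second measurement. The deposited folds are small throughout, with a median size of 0.026, and their size is not comparable with FPKM folds. How they were fitted is not stated, so their size was not compared between these genes of unlike level and spread either.

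The balance between the transporters leaned further towards VGLUT2 with closed eyes in each batch, without passing a test. The ratio of Slc17a6 to Slc17a7 FPKM was 7.93 times higher in closed than in open in batch A, 1.24 times in batch B and 3.62 times in batch C. A plain ratio of 2 genes from 1 library does not depend on how the library total was scaled. With 0.5 FPKM added to each gene it does in part, most where Slc17a7 is low. The log2 ratio of Slc17a7 to Slc17a6, with 0.5 FPKM added to each, averaged -5.61 ± 1.5 with closed eyes and -4.64 ± 1.13 with open eyes (SD, n = 3 each). The mean difference of -0.98 was smaller than either SD, though these SDs include the spread between batches. The exact two-sided permutation p was 0.4, where 3 against 3 libraries allow none below 0.1. Paired by batch, the log2 differences were -1.89 in A, -0.30 in B and -0.74 in C, with an SD of 0.82. The exact paired permutation p was 0.25, the smallest that 3 pairs allow. Without the added 0.5 FPKM the mean difference was -1.72 (exact two-sided permutation p = 0.3), because closed A and closed C lie below 0.5 FPKM for Slc17a7.

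**Figure D4:**
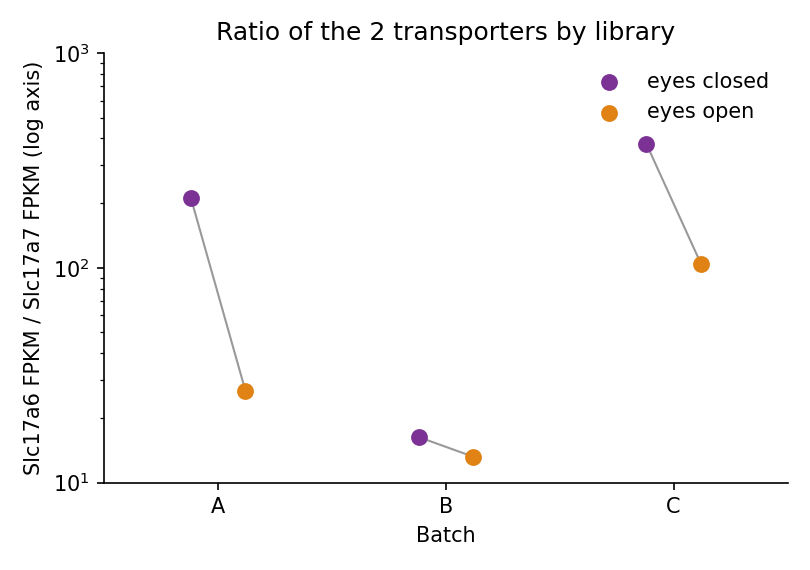
Each point is 1 library, the y axis gives Slc17a6 FPKM divided by Slc17a7 FPKM on a log axis, and grey lines join the libraries of a batch. The closed library is above the open one in each batch, but batch B lies near 13.2 to 16.3 and batch C between 104.4 and 378.3, so batches differ more than eye conditions.

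Genes with the pattern most like each transporter were sought among IDs averaging 10 FPKM or more, by Pearson correlation of log2(FPKM + 0.5) over the 6 libraries, as a description. For Slc17a7 they were ENSRNOG00000002722 (r = 0.991) and ENSRNOG00000047143 (r = 0.989), which shared the order of libraries to a large degree but not the size. The highest library of ENSRNOG00000002722, at 23.2 FPKM, was 1.18 times its lowest, and the same ratio was 1.33 for ENSRNOG00000047143. For Slc17a6 they were ENSRNOG00000001773 (r = 0.995) and ENSRNOG00000028451 (r = 0.989), the latter running from 106.8 FPKM in open C to 178.5 FPKM in closed B. A correlation of at least 0.9 was reached with Slc17a7 by 505 IDs (4.09%) and with Slc17a6 by 104 IDs (0.842%), counted over all 12350 other tested IDs. A correlation of -0.9 or below was found for 54 IDs (0.437%) with Slc17a7 and for 166 IDs (1.34%) with Slc17a6, and all these values are over points that share batches.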

How the data were processed

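The authors deposited FPKM values for 6 libraries and a table of their own comparison with a signal that reads as a mean normalized count, a log2 fold, a p-value and an adjusted p-value, made with DESeq2 per the file's own columns. The submitters' processing notes name STAR 2.3.14z, featureCounts 1.4.4, Cufflinks 2.1.1, DESeq2 1.4.1 and build rn5; the role of each tool, and the annotation, are not stated there. The deposited log2 fold had the sign opposite to closed minus open in FPKM for 74.6% of 12344 IDs and was therefore turned. Low FPKM values held no usable steps of 1 read (no 0.5% ratio bin took more than 3.8% of IDs in any of 15 library pairs), so depth per library is unknown and no count model was fitted.

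Differences were tested with limma 3.58.1 in R 4.3.3 on log2(FPKM + 0.5), using a trended and robust prior, for the 12351 IDs averaging 1 FPKM or more in the 6 libraries; p-values were two-sided, adjusted by Benjamini-Hochberg over these IDs and judged at 0.05. Ratios were tested with exact permutation tests (scipy 1.17.1). The batch label is shared by both groups, so it pairs libraries; after removal of group means, paired libraries correlated at 0.361 to 0.525. The code was tested on simulated data. Alternatives were other pseudocounts, filters, scalings and moderation, the block, and each library or batch left out. The named genes were the 2 members and the 2 IDs most like each. Members, lists and tests were chosen with earlier results of these data known. The 5 planned gene lists and 10 marker sets, including those that would check the dissected tissue, could not be matched, because none of the 47357 rows of the reference table carries an Ensembl ID; they were not analysed here.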

Additional observations from a re-analysis of the deposited data

How the results depend on the processing

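The closed-minus-open difference of Slc17a7 stayed negative in 22 alternatives (-1.81 to -0.33) and that of Slc17a6 positive in 23 (0.029 to 0.16), and neither was called in any limma setting (adjusted p from 0.518 to 1 and from 0.415 to 1). The block, plain moderation and a filter at a mean above 0 FPKM cannot move these estimates, so they are no separate support for the sign. For each gene all 3 batches had the same sign, so leaving out a batch could not reverse it. A filter at a mean of 5 FPKM removed Slc17a7 before testing. The log2 ratio of the genes stayed lower in closed eyes in 13 alternatives (-1.84 to -0.46, exact permutation p from 0.2 to 0.8). The paired test cannot move the ratio estimate. All 3 batches had the same sign for the ratio too, so leaving out a batch could not reverse it. The replicate block changed no call of either gene. Over all IDs, limma gave 0 calls without and 1 with the replicate block (1 also with a pseudocount of 0.1), 0 to 3 without a single library, and 3, 5 and 3 with batch A, B or C left out (6, 16 and 2 with the block); fewer samples were fitted there. The batch difference of Slc17a7 lost its call without batch C (log2 span 1.78), where fewer samples were fitted. The paired fit without a batch and with another pseudocount, and all tests between batches, were added after the data were seen. By the estimated counts, few reads stand behind the low Slc17a7 libraries, and their effect on its folds was not tested.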
